A study of Drosophila melanogaster with 36 samples.

Results

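The cytochrome P450 genes of clan 3 were examined in Kc167 cells exposed to methyl methanesulfonate (MMS), an agent that methylates DNA and other cellular nucleophiles. Members were chosen by name. They were the genes whose symbol places them in the families Cyp6, Cyp9, Cyp28, Cyp308, Cyp309, Cyp310 or Cyp317 and that had a probe set listed with a single gene, which gave 37 of 11982 genes measured. Cyp6 supplied 23 of them, Cyp9 supplied 5, Cyp28 supplied 4, Cyp309 supplied 2, and Cyp308, Cyp310 and Cyp317 supplied 1 each. Each member was read by 1 probe set. By their annotation, 22 members lie on chromosome arm 2R, 7 on 2L, 4 on 3R and 4 on X.

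Kc167 is a line of embryonic Drosophila melanogaster cells with features of hemocytes, the blood cells of the fly. RNA from 36 cultures was hybridised to Affymetrix arrays in 9 groups of 4, and per the series description the 4 cultures were grown independently. Cells were plated, and the medium was exchanged a day later for medium alone (control, harvested at 0, 1, 8, 24 and 72 h) or medium with MMS at 40 µg/mL (harvested at 1, 8, 24 and 72 h). All cultures therefore shared the plating and the exchange of medium, and the question at each time was which P450 transcripts differed between treated and untreated cells of the same age.

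Cytochromes P450 are heme-containing monooxygenases that add an oxygen atom to lipophilic substrates. Those of clan 3 sit in the membrane of the endoplasmic reticulum and take their electrons from cytochrome P450 reductase. In insects this clan is known for the metabolism of plant toxins and insecticides, mostly in fat body, gut and Malpighian tubule, and many of its genes lie side by side in clusters of recent copies.

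Values are on a log2 scale, so a difference of 1 is 2-fold. Differences carry the SE from the fit (n = 4 arrays in each group), and group means carry the SD. A gene was called higher or lower at an adjusted p under 0.05 in limma, with p-values adjusted over all 11982 genes. Probe sets differ in brightness, so differences in level were tested only within a gene, and where a probe set is called dim, or ranked among all genes, this speaks of its signal on the array. Arrays were scaled to each other, and in whole cultures fewer cells with a transcript and less of it per cell cannot be told apart.

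Arrays of 1 group correlated at 0.9825 to 0.9984. Of 15 hemocyte markers 13 had a mean above that of the median gene, with Hml at percentile 96.8 and srp at percentile 90.1 of all genes, while the prophenoloxidase gene PPO1 and the scavenger receptor gene Sr-CI lay below. None of 6 fat body, 5 gut, 4 Malpighian tubule and 4 muscle markers had a mean above that of the median gene. Of 4 germline markers 2 did (aub at percentile 82.3 and bam at 57.7), and of 5 neuron markers 2 did (brp at 53.81 and elav at 53.45). The 8 arrays of 8 h stood apart from the other 28 in both treatments. Their probe sets for 18S ribosomal RNA read 11.64 to 12.24 (4.00 to 9.65 in the others), and the control transcripts' 3′ probe sets exceeded the 5′ ones by 1.42 to 1.67 (0.50 to 0.72 in the others). MMS and control arrays of 8 h shared this, and its part in the levels and differences at 8 h was not tested.

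Over the 3 later times 22 of the 37 members were higher with MMS at least once, beside 23.5% of all genes. Family by family these were 15 of 23 Cyp6 genes, 3 of 4 Cyp28 genes, 2 of 5 Cyp9 genes, 1 of 2 Cyp309 genes and Cyp317a1, while Cyp308a1 and Cyp310a1 were never called. At 8 h 9 members were higher and 2 lower, against 8.85% and 11.5% of all genes. The counts at 24 h were 14 higher and 1 lower (all genes, 10.2% and 10.0%), and at 72 h 19 higher and 1 lower (all genes, 17.0% and 12.5%). After each array was centred on its own median, which moved the median of all genes down to -0.21 at 72 h, the counts were 8 higher and 4 lower at 8 h and 16 higher and 10 lower at 72 h, where 24.0% and 53.5% of all genes were called in either direction. With replicate numbers as a block in a fit of the 24 h groups alone, 15 members were higher and 4 lower at 24 h, where 33.2% of all genes were called. At least 2-fold higher were 2 members at 8 h (1.01% of all genes), 8 at 24 h (2.40%) and 10 at 72 h (3.58%). The median change over all 37 members was -0.05 at 8 h, 0.12 at 24 h and 0.30 at 72 h, beside -0.02, -0.02 and -0.05 over all genes.

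After 1 h of MMS no member was called higher or lower, and neither was any gene (0% in each direction). The members' changes lay between -0.18 and 0.27, with a smallest adjusted p of 0.836. Without adjustment 0 members and 5.71% of all genes had a p under 0.05.

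**Figure D1:**
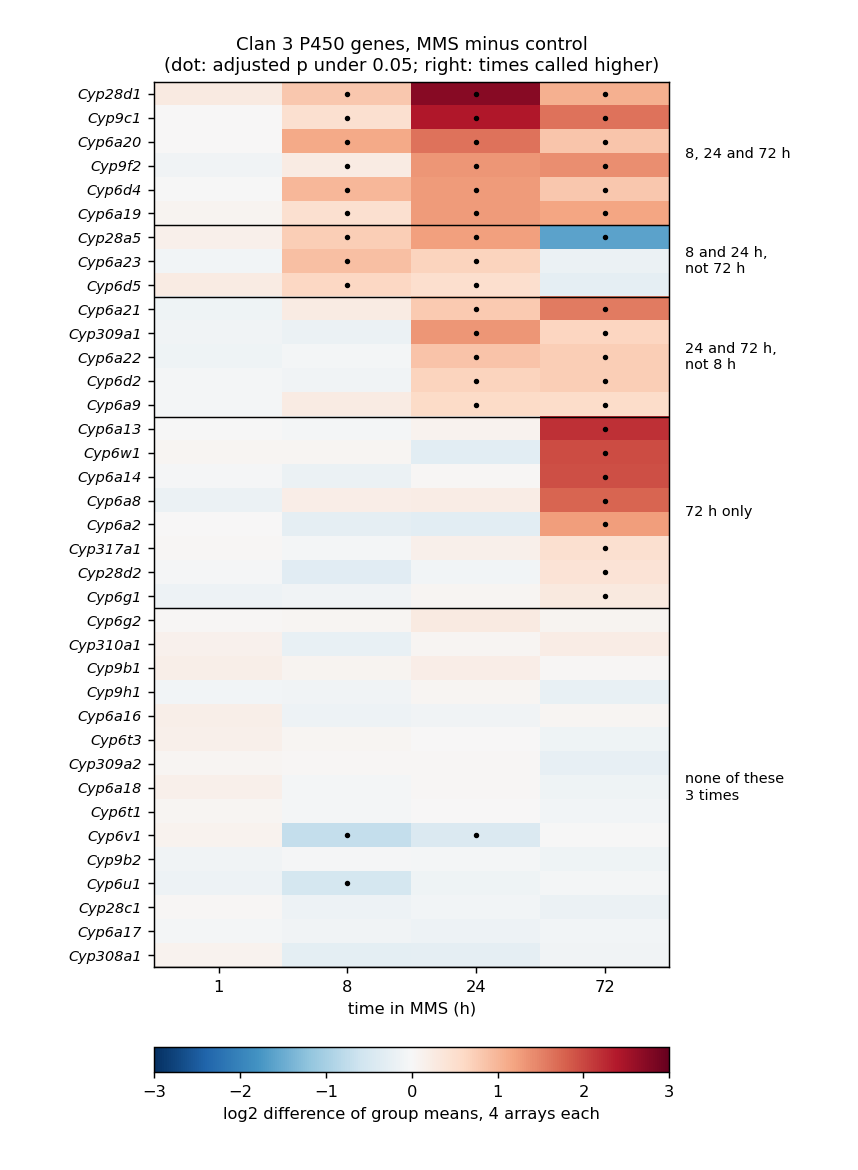
Log2 difference of MMS and control group means for the 37 clan 3 P450 genes (rows) at 1, 8, 24 and 72 h (columns), 4 arrays per group, with a dot where the adjusted p was under 0.05. Rows are ordered by the times at which a gene was called higher: 6 genes at 8, 24 and 72 h, 3 at 8 and 24 h, 5 at 24 and 72 h, 8 at 72 h alone and 15 at none.

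By the times at which they were called higher, the members fell into 4 groups and a remainder. The heat map of MMS effects shows 6 genes higher at 8, 24 and 72 h (3.25% of all genes had that pattern), 3 higher at 8 and 24 h but not at 72 h (1.32%), 5 higher at 24 and 72 h but not at 8 h (3.67%) and 8 higher at 72 h alone (8.99%). None was higher at 24 h alone (1.95%), at 8 h alone (3.17%) or at 8 and 72 h without 24 h (1.11%). The other 15 were higher at none of these times, as were 76.5% of all genes. Since the times were measured in separate cultures, the group a gene falls in also depends on which of its 3 tests passed.

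The 6 genes higher at all 3 times were Cyp28d1, Cyp9c1, Cyp6a20, Cyp6d4, Cyp9f2 and Cyp6a19. Cyp28d1, a gene linked to nicotine tolerance in D. melanogaster, had the greatest difference of any member at 24 h. Its control arrays of 24 h read 7.64, 7.76, 7.86 and 7.77 and its MMS arrays 10.45, 10.47, 10.57 and 10.45, so that no array of one group came near the other. The difference was 2.73 ± 0.14 (6.63-fold, adjusted p = 1.59e-16). At 8 h the control arrays read 8.92, 8.66, 8.50 and 8.46 and the MMS arrays 9.15, 9.58, 9.46 and 9.56, a difference of 0.80 ± 0.14 (adjusted p = 9.71e-05), and the groups did not overlap. At 72 h they read 10.50, 10.45, 10.70 and 10.53 in control and 11.59, 11.46, 11.74 and 11.62 in MMS, a difference of 1.06 ± 0.14 (adjusted p = 4.22e-07). The smaller effect at 72 h came with a higher control level: control cultures alone gained 2.79 ± 0.14 between 24 and 72 h (adjusted p = 1.24e-16), while MMS cultures gained 1.12 ± 0.14 (adjusted p = 1.28e-07).

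Cyp9c1 had the greatest difference at 24 h after Cyp28d1. Control arrays of 24 h read 6.52, 6.56, 6.37 and 6.65 and MMS arrays 8.96, 8.89, 9.04 and 8.86, a difference of 2.41 ± 0.09 (5.31-fold, adjusted p = 3.05e-20). At 8 h the values were 8.85, 8.59, 8.41 and 8.41 in control and 9.10, 9.04, 9.05 and 8.96 in MMS (0.47 ± 0.09, adjusted p = 0.000262). Its level with MMS was thus about the same at 8 h (9.04 ± 0.06), 24 h (8.93 ± 0.08) and 72 h (9.12 ± 0.08), whereas the control level was high at 8 h (8.56 ± 0.21) and lower at 24 h (6.52 ± 0.12) and 72 h (7.49 ± 0.10). At 72 h the arrays read 7.52, 7.59, 7.51 and 7.35 in control and 9.22, 9.05, 9.08 and 9.14 in MMS, without overlap (1.63 ± 0.09, adjusted p = 9.18e-16). Between 24 and 72 h of MMS its change was 0.19 ± 0.09 and did not pass (adjusted p = 0.103).

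Cyp6a20, which has been linked to aggression in male flies, was the member with the greatest difference at 8 h. Control arrays of 8 h read 7.15, 7.29, 7.38 and 7.16 and MMS arrays 8.02, 8.59, 8.45 and 8.42 (1.13 ± 0.13, 2.18-fold, adjusted p = 5.46e-08). The spread was wider with MMS, but its lowest array lay above every control array. At 24 h the values were 7.12, 7.22, 7.18 and 7.20 against 8.74, 8.71, 8.92 and 8.91 (1.64 ± 0.13, adjusted p = 2.83e-12), and at 72 h 8.52, 8.42, 8.75 and 8.65 against 9.34, 9.20, 9.57 and 9.59 (0.84 ± 0.13, adjusted p = 2.55e-06). In contrast to Cyp28d1 and Cyp9c1, its control level at 8 h (7.25 ± 0.11) lay within 0.5 of those at 1 h (6.77 ± 0.24) and 24 h (7.18 ± 0.04).

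Cyp6d4 was the other member to reach 2-fold at 8 h. Its control arrays of 8 h read 9.89, 9.95, 10.05 and 9.90 and its MMS arrays 10.78, 11.09, 11.02 and 10.92 (1.00 ± 0.08, 2.00-fold, adjusted p = 2.16e-11). At 24 h it read 10.32, 10.14, 10.07 and 10.12 in control and 11.44, 11.40, 11.52 and 11.41 in MMS (1.28 ± 0.08, adjusted p = 8.29e-15). The groups were apart again at 72 h, with 11.34, 11.37, 11.19 and 11.15 against 12.05, 11.96, 12.20 and 12.06 (0.81 ± 0.08, adjusted p = 4.76e-10).

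For Cyp9f2 the difference at 8 h was small and that at 24 h was not. At 8 h control arrays read 9.17, 8.97, 8.98 and 9.04 and MMS arrays 9.28, 9.34, 9.20 and 9.30. The groups did not overlap, but the change of 0.24 ± 0.09 was just past the threshold (adjusted p = 0.0494). That call was lost when any array of the comparison but replicate 1 of control was left out (adjusted p 0.0534 to 0.124), with centred arrays (0.189) and with an intensity trend in the prior variance (0.0791), so the gene may also be counted with those higher from 24 h. At 24 h it read 7.55, 7.25, 7.64 and 7.60 in control and 8.88, 8.86, 8.81 and 8.83 in MMS (1.34 ± 0.09, 2.52-fold, adjusted p = 6.08e-14), and at 72 h 8.28, 8.33, 8.15 and 8.30 against 9.56, 9.52, 9.84 and 9.69 (1.39 ± 0.09, adjusted p = 2.27e-14).

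Cyp6a19 was a dim member, with a mean in every group below that of the median gene (5.55). In control it read 3.98, 4.17, 3.84 and 3.67 at 8 h, 3.55, 3.50, 3.48 and 3.67 at 24 h and 3.98, 3.85, 3.97 and 3.88 at 72 h. With MMS it read 4.33, 4.69, 4.42 and 4.14 at 8 h, 4.84, 4.84, 4.67 and 4.93 at 24 h and 5.03, 4.76, 5.41 and 5.16 at 72 h. The groups overlapped at 8 h (0.48 ± 0.11, adjusted p = 0.00229) and were apart at 24 h (1.27 ± 0.11, adjusted p = 1.23e-10) and 72 h (1.17 ± 0.11, adjusted p = 5.70e-10). Its gene overlaps that of Cyp6a9, and the deposited values do not say how far a probe set of one could read the other.

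**Figure D2:**
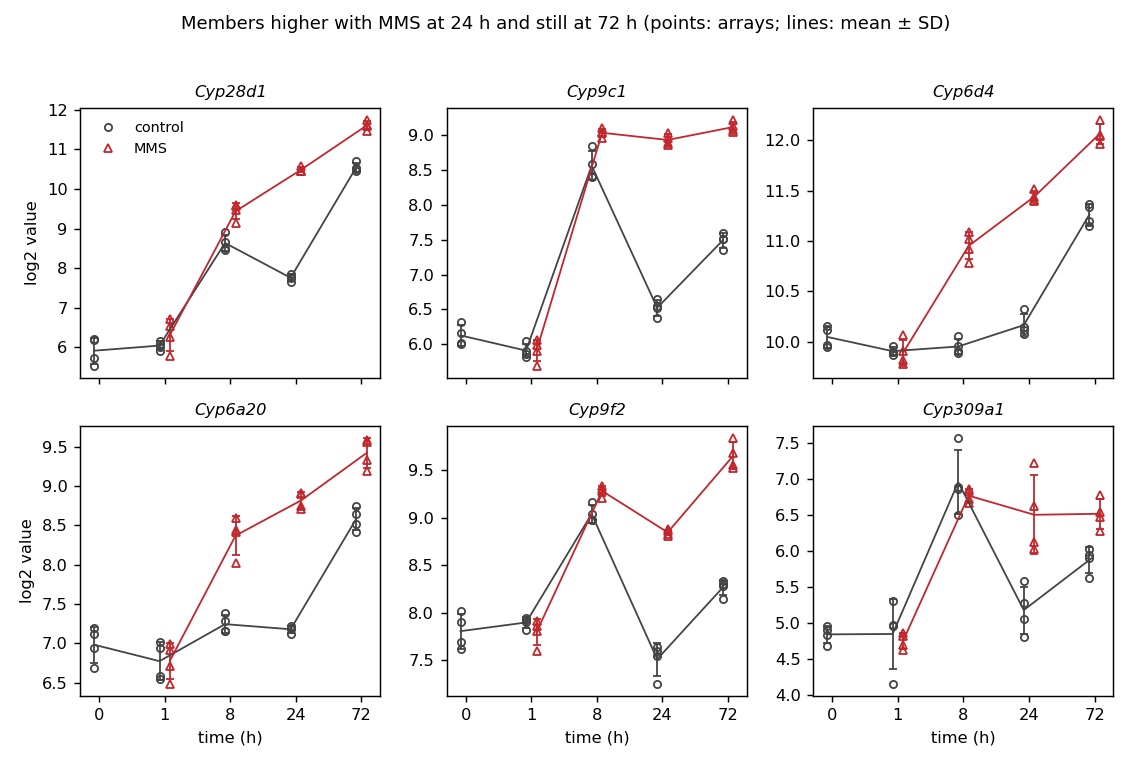
Log2 values of 6 genes higher with MMS at 24 and 72 h, by time (h, equally spaced categories), in control (black circles) and MMS (red triangles), with each array as a point and lines through group means ± SD. Cyp28d1, Cyp9c1, Cyp9f2 and Cyp309a1 had a high control level at 8 h that was lower again at 24 h. Cyp6d4 did not, and in Cyp6a20 the control level differed little (7.25 at 8 h, 7.18 at 24 h). MMS lay above control in all 6 at 24 h.

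The 5 genes higher at 24 and 72 h but not at 8 h were Cyp309a1, Cyp6a22, Cyp6a21, Cyp6d2 and Cyp6a9. Cyp309a1 read 5.05, 4.80, 5.27 and 5.58 in the control arrays of 24 h and 6.02, 6.13, 6.63 and 7.23 in the MMS arrays, a wide but separate pair of groups (1.33 ± 0.22, 2.51-fold, adjusted p = 1.08e-05). At 8 h the groups overlapped fully, with 7.57, 6.89, 6.50 and 6.86 in control and 6.72, 6.85, 6.67 and 6.83 in MMS (-0.19 ± 0.22, adjusted p = 0.628). The values at 72 h were 5.95, 5.90, 6.02 and 5.62 against 6.54, 6.77, 6.48 and 6.27 (0.64 ± 0.22, adjusted p = 0.0224). The call at 72 h was lost without replicate 4 of control (0.56, adjusted p = 0.0772), without replicate 2 of MMS (0.56, adjusted p = 0.0649), with centred arrays (0.48, adjusted p = 0.0666) and after a further quantile normalization (0.37, adjusted p = 0.289).

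Cyp6a21 differed at both times, and more at 72 h. It read 3.58, 4.08, 3.83 and 3.73 in control at 24 h and 5.11, 4.25, 4.34 and 4.63 with MMS, where replicate 1 was well above the other 3 (0.78 ± 0.18, adjusted p = 0.00125). At 72 h it read 3.92, 4.01, 4.27 and 4.16 in control and 5.99, 5.08, 5.37 and 6.17 with MMS (1.56 ± 0.18, 2.94-fold, adjusted p = 1.95e-08). Neither pair of groups overlapped, and in both the MMS arrays spread more widely than the controls.

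Cyp6a22 was higher by 0.85 ± 0.08 at 24 h (adjusted p = 8.01e-10) and 0.75 ± 0.08 at 72 h (adjusted p = 1.02e-08), beside -0.07 ± 0.08 at 8 h. Cyp6d2, a gene with a described part in resistance of flies to camptothecin, a topoisomerase poison, was higher by 0.66 ± 0.14 at 24 h (adjusted p = 0.000569) and 0.73 ± 0.14 at 72 h (adjusted p = 0.000131). Cyp6a9 was higher by 0.58 ± 0.16 (adjusted p = 0.00623) and 0.55 ± 0.16 (adjusted p = 0.0073) at these times. None of these 3 changes reached 2-fold.

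A direct test of the MMS effect at 24 h against that at 8 h called 7 members with a larger effect at 24 h and 0 with a smaller one, against 4.96% and 3.02% of all genes. The greatest shifts were those of Cyp9c1 (1.94 ± 0.13, adjusted p = 3.03e-12), Cyp28d1 (1.93 ± 0.20, adjusted p = 4.34e-08), Cyp309a1 (1.51 ± 0.30, adjusted p = 0.00105) and Cyp9f2 (1.09 ± 0.13, adjusted p = 1.81e-07). Cyp6a22 (0.92), Cyp6a19 (0.79) and Cyp6d2 (0.76) were the others. In all 7 the mean control level at 8 h exceeded those at 1 and 24 h. The values ran from 7.83 beside 7.62 and 7.73 in Cyp6a22 to 8.56 beside 5.91 and 6.52 in Cyp9c1. The contrast itself holds the control levels of 8 and 24 h, so its calls favour genes with such a control course. Members that were not called also had a mean control level at 8 h above those at 1 and 24 h. Among them were Cyp28a5 (5.41 beside 4.19 and 5.33), Cyp6a20 (7.25 beside 6.77 and 7.18) and Cyp28d2 (4.89 beside 4.53 and 4.37). Cyp6a9, Cyp6u1, Cyp6a13, Cyp6a14, Cyp6g1, Cyp6g2, Cyp6t3, Cyp28c1, Cyp317a1 and Cyp9b1 had such a course too, and the remaining members that were not called did not. The arrays of 8 h are those with more 18S signal and a steeper 3′ bias. The part of RNA quality in these shifts was not tested.

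At 72 h alone 8 members were higher with MMS, and 5 of these changed at least 2-fold. Cyp6a13 had the greatest difference of any member at that time. Its control arrays of 72 h read 4.17, 4.35, 4.22 and 4.54 and its MMS arrays 7.00, 5.92, 5.93 and 7.18 (2.19 ± 0.18, 4.55-fold, adjusted p = 1.37e-11). The MMS arrays formed a high and a low pair, and both lay above every control array. At 24 h the arrays overlapped, at 4.21, 4.60, 4.58 and 4.60 in control and 4.74, 4.54, 4.71 and 4.46 with MMS (0.12 ± 0.18, adjusted p = 0.761).

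Its neighbour Cyp6a14 had the same timing. Control arrays of 72 h read 6.28, 5.92, 6.48 and 6.47 and MMS arrays 8.42, 8.03, 7.93 and 8.55 (1.94 ± 0.13, 3.85-fold, adjusted p = 1.63e-13), without overlap. At 24 h it read 6.19, 6.50, 6.24 and 6.09 in control and 6.45, 6.26, 6.22 and 6.25 with MMS (0.04 ± 0.13, adjusted p = 0.904).

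Cyp6w1 and Cyp6a8 fell in control cultures over the experiment and did not stay low with MMS. Cyp6w1 read 7.91, 7.94, 7.73 and 8.00 in control at 0 h, 6.90, 7.00, 6.90 and 6.99 at 24 h and 6.10, 5.80, 6.51 and 7.00 at 72 h. With MMS it read 6.95, 6.93, 6.39 and 6.25 at 24 h and 8.56, 8.29, 7.56 and 8.83 at 72 h. The groups overlapped at 24 h (-0.32 ± 0.20, adjusted p = 0.336, or 0.0179 with replicates as a block in a fit of the 24 h groups alone) and were apart at 72 h (1.96 ± 0.20, 3.88-fold, adjusted p = 2.22e-09), with a wide spread in both.

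Cyp6a8, whose product hydroxylates lauric acid, read 9.88, 9.58, 9.54 and 9.71 in control at 0 h, 8.94, 8.97, 9.24 and 9.11 at 24 h and 7.90, 7.95, 8.29 and 8.91 at 72 h. Its MMS arrays read 9.35, 9.32, 9.29 and 9.17 at 24 h and 10.29, 9.78, 9.69 and 10.23 at 72 h. The difference was 0.22 ± 0.15 at 24 h (adjusted p = 0.359) and 1.74 ± 0.15 at 72 h (3.33-fold, adjusted p = 1.54e-11), and at 72 h even the highest control array, replicate 4, stayed below the lowest MMS array.

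Cyp6a2, known for the metabolism of organochlorine and organophosphate insecticides, read 5.74, 5.83, 5.77 and 5.78 in control at 72 h and 7.34, 6.90, 6.44 and 7.41 with MMS (1.24 ± 0.13, 2.37-fold, adjusted p = 3.23e-09). The 4 control arrays were nearly equal, and the MMS arrays were separate from them and spread over about 1 log2 unit. At 24 h it read 5.91, 5.72, 5.87 and 5.51 in control and 5.48, 5.56, 5.33 and 5.39 with MMS, on the other side of control. That change of -0.31 ± 0.13 did not pass (adjusted p = 0.10), but it passed with centred arrays (adjusted p = 0.0331), after a further quantile normalization (adjusted p = 0.0309), without replicate 4 of control (adjusted p = 0.048), in a fit of the 24 h groups alone (adjusted p = 0.0434) and with replicates as a block in that fit (adjusted p = 0.00619).

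The other 3 members higher at 72 h alone changed less. Cyp317a1 was higher by 0.48 ± 0.10 (adjusted p = 0.000502), Cyp28d2 by 0.40 ± 0.13 (adjusted p = 0.0169), and Cyp6g1, known for its part in resistance to DDT and neonicotinoids when overexpressed, by 0.30 ± 0.11 (adjusted p = 0.0329).

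Among the 10 members at least 2-fold higher at 72 h, replicates 1 and 4 of MMS were the 2 highest arrays in 7 (Cyp6a13, Cyp6a14, Cyp6a2, Cyp6a21, Cyp6a8, Cyp6w1 and Cyp9c1). The same pair was highest in 13 of all 37 members and in 14.1% of all genes. In Cyp28d1, Cyp6a19 and Cyp9f2 the highest pair was replicates 3 and 4 (11 members, 26.4% of all genes). These pairs were counted after the values were seen.

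**Figure D3:**
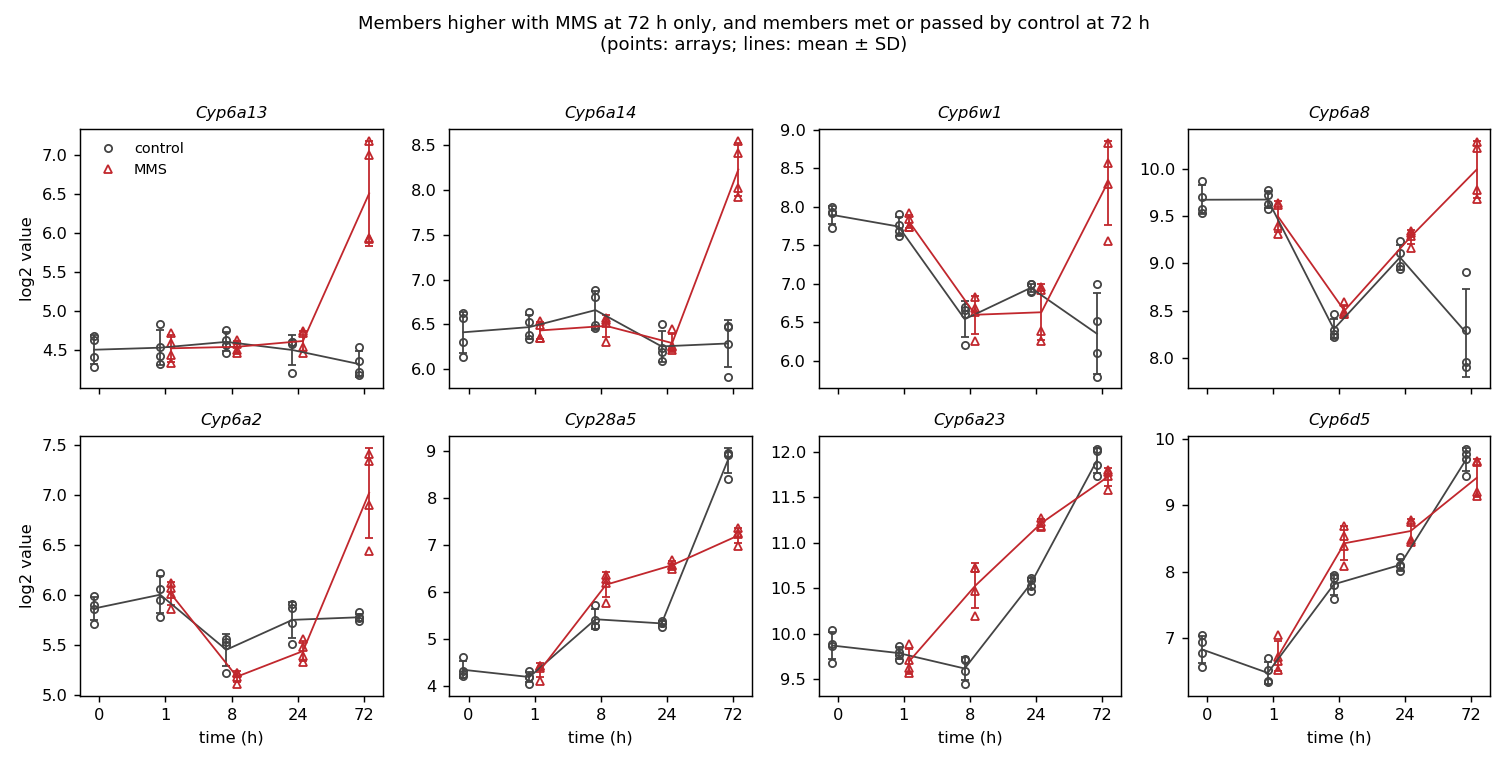
Log2 values of 5 genes higher with MMS at 72 h alone (Cyp6a13, Cyp6a14, Cyp6w1, Cyp6a8 and Cyp6a2) and of 3 that control met or passed at 72 h (Cyp28a5, Cyp6a23 and Cyp6d5), by time (h, equally spaced categories), with each array as a point and lines through group means ± SD. The first 5 separate from control at 72 h, and control Cyp28a5 reached 8.79 there beside 7.20 with MMS.

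Cyp28a5, Cyp6a23 and Cyp6d5 were higher with MMS at 8 and 24 h but not at 72 h, and for Cyp28a5 the direction turned. It read 5.71, 5.27, 5.40 and 5.27 in control at 8 h and 5.77, 6.28, 6.36 and 6.19 with MMS (0.74 ± 0.12, adjusted p = 4.23e-05), without overlap though replicate 1 of MMS came close to replicate 1 of control. At 24 h the values were 5.34, 5.37, 5.34 and 5.25 against 6.48, 6.56, 6.67 and 6.55 (1.24 ± 0.12, 2.36-fold, adjusted p = 1.12e-09). At 72 h they were 8.95, 8.90, 8.92 and 8.40 in control and 7.24, 6.96, 7.22 and 7.36 with MMS, so that every MMS array lay below every control array (-1.60 ± 0.12, 3.02-fold lower, adjusted p = 2.66e-12). It was the only member called lower at 72 h.

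Both treatments gained Cyp28a5 transcript after 24 h, and control gained more. Control Cyp28a5 rose by 3.47 ± 0.12 between 24 and 72 h (11.1-fold, adjusted p = 9.24e-21), the greatest change of any member in any of the 9 comparisons, and in MMS cultures it rose by 0.63 ± 0.12 (adjusted p = 9.66e-05). Cyp6a23 was higher by 0.91 ± 0.10 at 8 h (adjusted p = 1.78e-08) and 0.66 ± 0.10 at 24 h (adjusted p = 1.75e-06), beside -0.18 ± 0.10 at 72 h (adjusted p = 0.158). Cyp6d5 was higher by 0.62 ± 0.14 (adjusted p = 0.00105) and 0.51 ± 0.14 (adjusted p = 0.00531), beside -0.28 ± 0.14 at 72 h (adjusted p = 0.129). In these 2 genes as well control gained more than MMS after 24 h, with 1.35 ± 0.10 and 0.50 ± 0.10 for Cyp6a23 and 1.59 ± 0.14 and 0.80 ± 0.14 for Cyp6d5.

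In the fit on values as deposited, 2 members were called lower with MMS at 8 or 24 h. Of all genes 11.5% and 10.0% were lower at these times. More members were lower at 8 h with centred arrays, Cyp6a2 among them. At 24 h more were lower with replicates as a block in a fit of the 24 h groups alone, among them Cyp6a2 and Cyp6w1. Cyp6v1 was lower by -0.71 ± 0.09 at 8 h (1.64-fold, adjusted p = 5.41e-07) and -0.44 ± 0.09 at 24 h (adjusted p = 0.00035), and its change at 72 h was -0.01 ± 0.09 (adjusted p = 0.965). Cyp6u1 was lower by -0.53 ± 0.11 at 8 h (adjusted p = 0.000637), beside -0.13 ± 0.11 at 24 h and -0.05 ± 0.11 at 72 h.

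The effect at 72 h was set against that at 24 h in the same way. After a further quantile normalization it was larger for 5 members and smaller for 8, at a share of all genes not given here. As deposited it was larger for 7 members and smaller for 7, against 9.13% and 4.53% of all genes. On the larger side were Cyp6w1 (2.27 ± 0.29, adjusted p = 4.12e-07), Cyp6a13 (2.07 ± 0.26, adjusted p = 2.72e-07), Cyp6a14 (1.91 ± 0.19, adjusted p = 3.28e-09), Cyp6a2 (1.56), Cyp6a8 (1.52), Cyp6a21 (0.78) and Cyp6v1 (0.43). On the smaller side were Cyp28a5 (-2.83 ± 0.18, adjusted p = 6.21e-14), Cyp28d1 (-1.67 ± 0.20, adjusted p = 1.91e-07), Cyp6a23 (-0.85), Cyp6a20 (-0.80), Cyp6d5 (-0.79), Cyp9c1 (-0.78) and Cyp6d4 (-0.47).

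Some members also differed between control cultures of different times, and what lay behind these differences was not tested. In control cultures 5 members were higher and 5 lower at 24 h than at 0 h (all genes, 4.82% and 10.8%). A further quantile normalization gave 6 and 3, at a share of all genes not given here. As deposited the higher ones were Cyp28d1 (1.84 ± 0.14), Cyp6d5 (1.27 ± 0.14), Cyp28a5 (0.99 ± 0.12), Cyp6a23 (0.68 ± 0.10) and Cyp9c1 (0.40 ± 0.09). The lower ones were Cyp6w1 (-0.95 ± 0.20), Cyp6a21 (-0.77 ± 0.18), Cyp6a8 (-0.61 ± 0.15), Cyp6v1 (-0.34 ± 0.09) and Cyp9f2 (-0.30 ± 0.09).

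From 24 to 72 h in control, 16 members rose and 2 fell (all genes, 15.0% and 14.9%). Those at least 2-fold higher were Cyp28a5, Cyp28d1, Cyp6d5, Cyp6a20 (1.40 ± 0.13), Cyp6a23 and Cyp6d4 (1.10 ± 0.08), and Cyp6a8 (-0.80 ± 0.15) and Cyp6w1 (-0.60 ± 0.20) were the 2 that fell. With MMS 19 members rose and 2 fell between these times (all genes, 22.3% and 19.9%). Centred arrays gave 18 and 6, at a share of all genes not given here. As deposited Cyp6a14 (1.94 ± 0.13), Cyp6a13 (1.89 ± 0.18), Cyp6w1 (1.68 ± 0.20) and Cyp6a2 (1.58 ± 0.13) rose most with MMS. None of them was called higher in control over that interval. The 2 that fell with MMS were Cyp6g2 (-0.29 ± 0.12), a gene expressed in the corpus allatum, and Cyp309a2 (-0.26 ± 0.10).

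In the fit on values as deposited, no comparison of MMS with control called 13 members, whose means over all arrays lay between 3.55 and 5.07 and whose changes lay between -0.28 and 0.28. These were Cyp28c1, Cyp308a1, Cyp309a2, Cyp310a1, Cyp6a16, Cyp6a17, Cyp6a18, Cyp6g2, Cyp6t1, Cyp6t3, Cyp9b1, Cyp9b2 and Cyp9h1. Among them are Cyp6a17, which has been linked to temperature preference, and Cyp6t3, which has a described part in ecdysone synthesis. All 13 lay below the median gene mean, where a dim probe set understates a change, and detection calls were not used here. Under the median level of all genes in control at 0 h, 8 of 21 members were called at 8, 24 or 72 h. In that range 1417 of 5991 genes were called in either direction. At or above it 16 of 16 members were called, and 3912 of 5991 genes.

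Some neighbouring members were called higher at different times. Others had the same timing, as Cyp6a14 and Cyp6a13, and Cyp6a8 and Cyp317a1, which were all called higher at 72 h alone. By annotated position, 9 members follow each other on 2R without another gene between them: Cyp6a22, Cyp6a17, Cyp6a23, Cyp6a19, Cyp6a9, Cyp6a20, Cyp6a21, Cyp6a8 and Cyp317a1. At 24 h Cyp6a22, Cyp6a23, Cyp6a19, Cyp6a9, Cyp6a20 and Cyp6a21 were higher with MMS, while Cyp6a17, between Cyp6a22 and Cyp6a23, was at -0.14 ± 0.09. At 72 h Cyp6a8 and Cyp317a1 were higher as well, and Cyp6a23 was not.

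**Figure D4:**
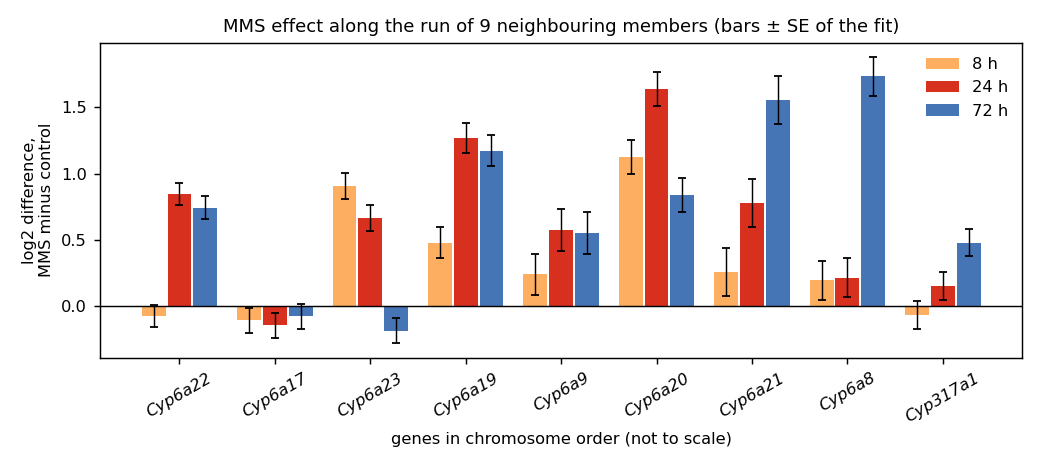
Log2 difference of MMS and control (bars, ± SE of the fit, 4 arrays per group) at 8, 24 and 72 h for the 9 neighbouring members on 2R, in chromosome order and not to scale. Cyp6a17 stays between -0.14 and -0.08 at the 3 times, Cyp6a20 is highest at 24 h with 1.64, and Cyp6a8 is highest at 72 h with 1.74.

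The difference in MMS effect between neighbours was tested within arrays for 14 pairs at 3 times, with a two-sided exact permutation test of 4 against 4 arrays. Its smallest possible p is 0.0286, which 19 of the 42 tests reached, and after adjustment over 42 tests the smallest p was 0.0632, so 0 passed. The widest gap was that of Cyp28d2 and Cyp28d1, which lie side by side on 2L, where the effect on Cyp28d2 at 24 h was -2.81 ± 0.11 relative to Cyp28d1 (exact permutation p = 0.0286, adjusted p = 0.0632). Cyp6a23 differed from Cyp6a19 by -1.36 ± 0.12 at 72 h, and Cyp309a1 from Cyp309a2 by 1.29 ± 0.31 at 24 h, both with that same smallest p. For Cyp6a14 and Cyp6a13, which have the pseudogene Cyp6a15Psi between them, the gap at 72 h was -0.24 ± 0.24 (exact permutation p = 0.286), and for Cyp6a21 and Cyp6a8 it was -0.18 ± 0.23 (exact permutation p = 0.486). The probe sets of Cyp28d2 (mean over all arrays 4.60), Cyp6a19 (4.07) and Cyp309a2 (3.55) are dim, where a change is understated. The part of this in the gaps was not tested. Neighbours of recent common origin can share sequence, and how far their probe sets read each other was not tested.

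Genes of the other P450 clans were called as well. Over all genes 8.85%, 10.2% and 17.0% were higher at 8, 24 and 72 h, and 11.5%, 10.0% and 12.5% lower. Among 32 clan 4 genes, known for the oxidation of fatty acids, 6 were higher and 0 lower at 8 h, 7 and 0 at 24 h, and 11 and 1 at 72 h, with Cyp4p1 at 1.35 ± 0.18, 3.48 ± 0.18 and 1.13 ± 0.18. As for Cyp28d1, its effect was greatest at 24 h. Of 4 clan 2 genes 0 were higher and 1 lower at 8 h, Cyp304a1 (-0.64 ± 0.12, adjusted p = 0.000121), and Cyp305a1 was the only one called at 24 h (1.64 ± 0.14 higher) and at 72 h (2.78 ± 0.14 higher). Of 8 genes of the mitochondrial clan 2, 3 and 4 were higher and 0 lower at the 3 times, led by Cyp12d1-d (1.06 ± 0.15, 1.64 ± 0.15 and 1.34 ± 0.15), from a pair of near-identical copies whose reads on an array can mix.

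P450 enzymes need heme and electrons. Among 6 genes of heme synthesis and breakdown 1 was higher and 3 lower at 8 h, 3 higher and 1 lower at 24 h, and 2 higher and 1 lower at 72 h. The median change of the list was -0.36, 0.30 and 0.04 at these times. The heme genes named here were picked by the smallest adjusted p at 24 h, and none of those called lower is among them. FeCH, ferrochelatase, which inserts the iron, was higher by 0.31 ± 0.08 at 8 h, 1.13 ± 0.08 at 24 h and 1.16 ± 0.08 at 72 h (adjusted p = 2.46e-13). Alas, the first enzyme of the pathway, was higher at 24 h (1.05 ± 0.10, adjusted p = 2.55e-10), beside -0.17 ± 0.10 at 8 h and 0.09 ± 0.10 at 72 h. Of 3 redox partners measured, 1 was higher at 8 h, 2 at 24 h and 1 at 72 h. The ferredoxin gene Fdx2 was higher by 0.52 ± 0.14, 0.70 ± 0.14 and 0.75 ± 0.14 at the 3 times (adjusted p = 0.00512, 0.000144 and 4.34e-05), and the ferredoxin gene Fdx1 by 0.77 ± 0.18 at 24 h (adjusted p = 0.00147). Ferredoxins pass electrons to the P450s of mitochondria. For clan 3 enzymes the electron donor Cyt-b5, cytochrome b5, changed by -0.18 ± 0.09, 0.02 ± 0.09 and 0.18 ± 0.09 at the 3 times and was not called, while Cpr, the reductase, had no probe set used here.

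Of 13 regulators of detoxification genes 0 were higher and 2 lower at 8 h, 0 higher and 3 lower at 24 h, and 3 higher and 1 lower at 72 h. Hnf4, a nuclear receptor of lipid metabolism, was at -0.97 ± 0.13 and -0.94 ± 0.13 at 8 and 24 h (adjusted p = 7.18e-07 and 3.69e-07) and -0.29 ± 0.13 at 72 h (adjusted p = 0.0817). The juvenile hormone receptor gce was at -1.72 ± 0.26 at 24 h (adjusted p = 3.73e-06) and -0.97 ± 0.26 at 72 h (adjusted p = 0.00454). The gene foxo, a transcription factor of insulin signalling, was at -0.89 ± 0.28 at 24 h (adjusted p = 0.0177). These regulators were picked by the smallest adjusted p at 24 h, and none of the 3 called higher at 72 h is among them. Markers of the tissues in which clan 3 P450s are best known stayed dim, with 15 markers of fat body, gut and Malpighian tubule averaging 4.34 to 4.53 in control and 4.36 to 4.51 with MMS at 24 h, and 4.36 to 4.47 and 4.23 to 4.37 at 72 h. Of these 15 markers 1 was higher and 0 lower at 24 h, and 2 were higher and 2 lower at 72 h. Of the 15 hemocyte markers 1 was higher and 7 lower at 24 h, and 3 higher and 6 lower at 72 h. Of 5 neuron markers 2 were higher and 0 lower at each of 8, 24 and 72 h, of 4 muscle markers 1 was higher at 8 and 24 h and 1 lower at 72 h, and of 4 germline markers 2 were lower at 24 h and 1 higher at 72 h. The part of these markers in the P450 changes was not tested.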

How the data were processed

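RNA of 36 Kc167 cultures was measured on Affymetrix Drosophila Genome arrays. For each array the authors deposited a log2 value of every probe set, made with RMA according to the submitters' processing notes (background correction, quantile normalization and a summary of each probe set). Quantile normalization makes every change relative to other genes. The version of RMA and the genome build are not given in the sources used here. Deposited log2 values ran from 2.67 to 14.74, with array medians of 4.47 to 4.66. Arrays carry no sequencing depth, and their number limits the precision. Of 18952 probe sets 183 were controls, 402 were listed with several genes and 4721 with none, and these were left out. Of the 13646 single-gene probe sets, the one with the highest mean was taken per gene, which left 11982 genes. Names came from the platform annotation, and 13543 probe sets were found in a RefSeq gene table (Release 6 plus ISO1 MT), used for names, chromosome and neighbours only.

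Means of the 9 groups were fitted with limma 3.58.1 in R 4.3.3 (27 residual degrees of freedom) without covariates, two-sided, with Benjamini-Hochberg adjustment over all genes. The permutation analysis that the array service ran for the study was replaced by limma. Neighbour pairs, with at most 1 gene between them, were compared with scipy 1.17.1. Scripts were tested on simulated data. Array values are given for up to 14 members with an adjusted p under 0.05 and 2-fold in a comparison of MMS with control, by the largest change, and other list genes for up to 3 members per list by adjusted p at 24 h. The members, gene lists and tests were chosen with earlier results of these data known. Same-numbered MMS and control arrays deviated together at 24 h (correlations of 0.356 to 0.529 in 4 pairs, all over 0.1). At the other times they did so in some pairs only (-0.436 to 0.462 in 12 pairs, 3 over 0.1, of which 2 at 8 h). Of all 16 MMS arrays, 6 matched the control array of their own number best. No label says what a number stands for, so the replicate block is given beside results at 24 h only where it changes a call. Alternatives changed the samples fitted, a replicate block, the scaling, the probe sets, a filter on dim genes, the prior variance and the arrays included.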

Additional observations from a re-analysis of the deposited data

Results flagged for a closer look

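Among 126 groups of 4 arrays of the 14 genes given by array, 6 held an array far from the other 3 by Dixon's criterion (critical value 0.829), and chance alone flags about 1 in 20 groups. For Cyp28d1 replicate 3 of MMS at 24 h read 10.57 (the others 10.45 to 10.47). Replicate 1 of control at 24 h read 4.21 for Cyp6a13 (4.58 to 4.60), and replicate 1 of MMS at 24 h read 6.45 for Cyp6a14 (6.22 to 6.26). Replicate 3 of MMS at 8 h read 8.59 for Cyp6a8 (8.46 to 8.48). For Cyp28a5 replicate 3 of MMS at 1 h read 4.10 (4.38 to 4.42), and replicate 4 of control at 72 h read 8.40 (8.90 to 8.95).

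The MMS effect differed between 24 and 8 h, by the interaction contrast, for Cyp6d2 (0.76), Cyp6a19 (0.79), Cyp6a22 (0.92), Cyp9f2 (1.09), Cyp309a1 (1.51), Cyp28d1 (1.93) and Cyp9c1 (1.94). Between 72 and 24 h it was smaller at 72 h for Cyp28a5 (-2.83), Cyp28d1 (-1.67), Cyp6a23 (-0.85), Cyp6a20 (-0.80), Cyp6d5 (-0.79), Cyp9c1 (-0.78) and Cyp6d4 (-0.47), and larger for Cyp6v1 (0.43), Cyp6a21 (0.78), Cyp6a8 (1.52), Cyp6a2 (1.56), Cyp6a14 (1.91), Cyp6a13 (2.07) and Cyp6w1 (2.27). In Cyp28a5 the effect also changed sign, from 1.24 at 24 h to -1.60 at 72 h.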

How the results depend on the processing

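Across the alternatives run with all arrays in hand, the number of members called with MMS ranged from 10 to 12 at 8 h, 13 to 19 at 24 h and 14 to 26 at 72 h (11, 15 and 20 as reported), and with 1 array left out from 10 to 11, 15 to 16 and 18 to 21. None of the total counts moved by over 1.5 times, and no change that was called reversed among the genes given by array, though changes near 0 changed sign under some settings (Cyp6a14 at 24 h from 0.04 to -0.02 and Cyp6w1 at 8 h from 0.06 to -0.02 with centred arrays). With a replicate block the counts were 11, 15 and 20, and with the block and only the groups compared, chosen after seeing the data, 12, 19 and 18. In that last fit 27.8%, 33.2% and 20.7% of all genes were called at 8, 24 and 72 h, so the background moved as well. That last fit called Cyp6w1 (-0.32) and Cyp6a2 (-0.31) lower at 24 h, and the block changed no other call of a gene given by array. Centring each array on its median moved the median of all genes to -0.21 at 72 h and -0.09 at 8 h. Members called were then 16 higher and 10 lower at 72 h and 8 higher and 4 lower at 8 h. Of all genes 53.5% were called in either direction at 72 h and 24.0% at 8 h. From 24 to 72 h of MMS 18 members were higher and 6 lower, at a share of all genes not given here. A further quantile normalization gave 6 higher and 3 lower in control at 24 h against 0 h, and 5 larger and 8 smaller effects at 72 h against 24 h. The shares of all genes at that setting are not given here. Leaving out genes below the median gene mean removed 19 members from the test and left 14 called at 72 h. Without the 8 h arrays 15 members were called at 24 h and 20 at 72 h. Pairs of neighbours had no call under any setting, and 3 against 4 arrays cannot go below an exact p of 0.0571.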
